A study of Homo sapiens with 20 samples.

Results

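The LHFPL3 locus on chromosome 7 carried H3K4me3 at 8 separate places in WM164 melanoma cells. The 2 states of dabrafenib-treated cells had different sets of them, with only the promoter region in common. The locus is an interval of 610 kb in GRCh37 around the gene, and its peaks lay between 103968533 and 104493372. All 99 peaks overlapping it in the 10 deposited lists were taken, out of 306884 peaks in all. Peaks that overlapped or lay within 1000 bp of each other were merged over the 10 libraries, which gave 8 regions at the locus out of 31428 on the autosomes and X. The promoter region (103968533 to 103973028) and the internal region (104434253 to 104448253) were chosen by the covered bases in these same libraries, the first as gained in colonies over parental cells, the second as lost in resistant cells. Their values in those 2 comparisons are therefore descriptions and carry no test.

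The study mapped H3K4me3 by chromatin immunoprecipitation and sequencing in WM164, a human melanoma cell line with a mutant BRAF kinase, and has 2 libraries in each of 5 groups. Colony cells had spent 45 days in 50 nM of the BRAF inhibitor dabrafenib, and resistant cells more than 90 days in the same dose, with the drug renewed every 3 days. Parental cells, the control of both, received DMSO for 3 days. Cells overexpressing NRAS Q61K, an activated RAS protein, were set beside cells overexpressing GFP. All groups share the BRAF mutant background. The labels do not give the vector or promoter behind either transgene, whether a group is 1 clone, or whether the resistant cells descend from colonies, and they do not say that the 2 libraries of a group came from separate cultures.

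H3K4me3 is deposited at active promoters by the SET1 and MLL methyltransferase complexes, most of all at promoters rich in CG dinucleotides, and long stretches of the mark are typical of genes that a cell type depends on. LHFPL3 encodes a small membrane protein of the lipoma HMGIC fusion partner-like family, whose members pass the membrane several times. Close relatives act as partners of GABA-A receptors at inhibitory synapses and of the mechanotransduction channel of hair cells. In the brain its transcript is widely used as a marker of oligodendrocyte precursor cells. In RefSeq's annotation of another build, GRCh38.p14, the long noncoding RNA genes LHFPL3-AS1 and LHFPL3-AS2 and the pseudogene EIF4BP6 overlap LHFPL3, the nearest protein-coding gene before it is ORC5, a subunit of the origin recognition complex, and the nearest after it is KMT2E, a chromatin protein of the MLL family. No annotation of GRCh37 was at hand, so none of the regions was placed on an exon, an intron or the start of an antisense transcript, and the melanocyte identity of the cells was not checked against marker genes.

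The promoter sequence is shown because both drug states gained a peak in the region named after it. It runs from 250 bases before to 50 bases after the RefSeq start of LHFPL3, at chr7:104328353-104328652 on the plus strand of GRCh38.p14, with each CG dinucleotide in capitals. Because the builds differ, the position of this start within the promoter region of the peaks was not checked, and the region's name is the one under which it was chosen.
LHFPL3 promoter: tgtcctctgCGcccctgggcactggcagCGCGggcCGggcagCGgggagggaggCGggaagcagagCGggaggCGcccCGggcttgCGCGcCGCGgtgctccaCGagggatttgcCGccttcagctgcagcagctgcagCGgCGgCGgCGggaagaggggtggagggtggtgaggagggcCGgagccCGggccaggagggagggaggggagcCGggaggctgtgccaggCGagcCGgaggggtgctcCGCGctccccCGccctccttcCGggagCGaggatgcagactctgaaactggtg

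This stretch of 300 bases holds 29 CG dinucleotides and is 75.3% G or C. As many CG or more occurred in 24.2% of 35116 promoters of the same length, whose median was 14. The E-box letters CACGTG and CATGTG, read by the melanocyte factor MITF, and the AP-1 letters TGANTCA were not in this window on either strand, while 7.26%, 11.1% and 7.71% of all promoters held each of them. The Sp-family letters GGGCGG occurred 1 time, with the match starting at base 257, and 45.0% of promoters held them. It was the 1 match in all, so none overlap.

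Regions are called below by their distance from the first base of the promoter region. Besides the promoter region and the internal region, which starts at 466 kb, 2 further regions were broad in some groups, one at 452 kb (104420428 to 104427256) and one at 521 kb (104489146 to 104493372). The other 4 regions, at 262, 275, 395 and 429 kb, held no peak over 308 bp. The nearest marked regions outside the interval were a peak of 153 bp in GFP 2 alone before it, and after it a region covered over 320 bp in NRAS Q61K 2 and 142 and 329 bp in GFP 1 and 2.

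**Figure D1:**
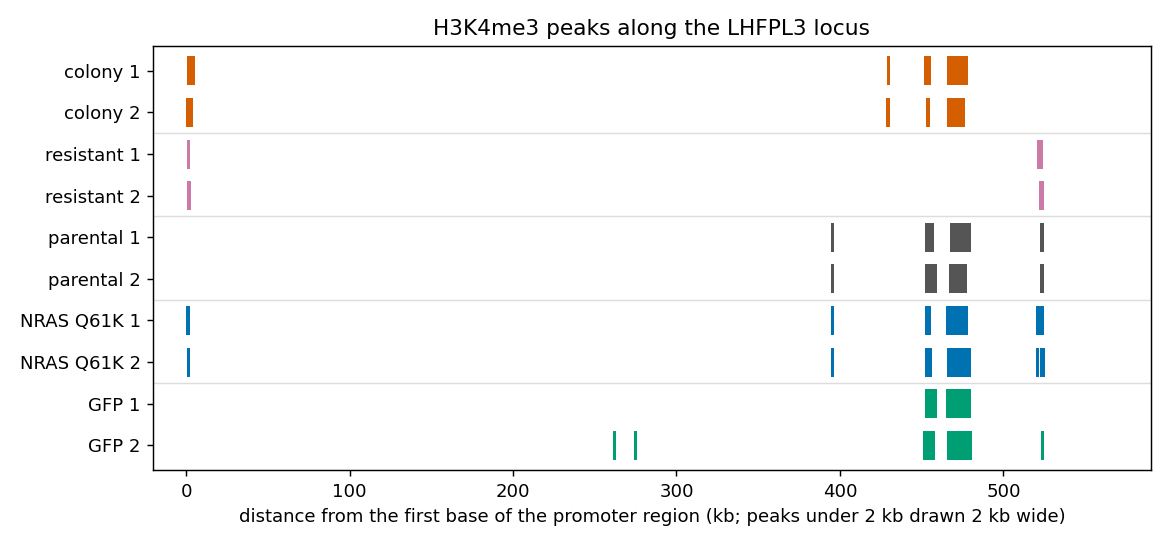
Deposited H3K4me3 peaks along the locus in each of the 10 libraries, with the distance from the first base of the promoter region in kb on the horizontal axis; peaks under 2 kb are drawn 2 kb wide. The resistant rows hold peaks at 0 and near 521 kb only, while the other 8 rows hold the wide block that starts near 466 kb.

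Over the whole interval, 15195 and 14557 bp lay under peaks in the colony libraries and 5309 and 4892 bp in the resistant libraries, against 14684 and 13379 bp in the parental libraries. The resistant pair thus had the least marked sequence of the 3 groups, and the colony and parental ranges overlapped. These totals include the internal region, which was chosen as lost in resistant cells. It made up 9860 and 9716 bp in colony, 0 bp in each resistant, and 9030 and 7873 bp in parental libraries. The low resistant totals therefore follow in large part from that choice. NRAS Q61K libraries had 16922 and 14837 bp and GFP libraries 14582 and 14598 bp. The number of peaks ran from 2 in resistant 2 to 18 in GFP 1. The Jaccard index of covered bases within the interval was 0.671 to 0.785 between the 2 libraries of a group. Between resistant and colony libraries it was 0.102 to 0.122, between resistant and parental libraries 0.0253 to 0.0391, and between resistant and GFP libraries at most 0.00922. The index counts the bases of the internal region, so its low values with resistant libraries also follow in large part from the choice of that region.

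The library facts that bear on these values are the following. The lists held 19116 to 45540 peaks, fewest in resistant and colony and most in GFP and NRAS Q61K cells. The shortest peak of a list, which follows the fragment length used by the peak caller, was 282 and 284 bp in colony, 255 and 256 bp in resistant, 202 and 180 bp in parental, 153 and 151 bp in NRAS Q61K and 142 and 153 bp in GFP libraries. The background that the peak statistics imply ran between 14.5 and 25.3 reads per kb. Fragment length and treatment cannot be told apart. The files hold no read totals, so the depth of a library is known only through these values.

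At the promoter region, the mark was present in both states of drug-treated cells and not only in colonies. Covered bases were 3320 and 4092 bp in colony libraries and 2158 and 2093 bp in resistant libraries, against 0 bp in each parental library. NRAS Q61K libraries had 535 and 175 bp, and GFP libraries 0 bp each. All 4 drug-exposed libraries were therefore above all 6 others. The resistant pair lay below the colony pair (2125.5 ± 46.0 bp in resistant and 3706 ± 546 bp in colony cells, SD, n = 2 each). The opposite change in the 2 drug states for which the locus was chosen thus does not apply to the promoter region, which both drug states gained.

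The peaks at the promoter region differed in length more than in position. The stretch from 103969217 to 103971060, 1844 bp, lay under a peak in all 4 drug-exposed libraries. After that stretch the colony libraries had a further 1430 and 1564 bp under peaks, and the resistant libraries 0 and 249 bp. The summits lay 1.81 and 1.74 kb from the region's first base in colony and 0.857 and 1.28 kb in resistant libraries, and those of the short NRAS Q61K peaks at 1.59 and 1.60 kb.

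The number of reads over each summit was recovered from the deposited fold and p-value, which together fix the whole number of extended reads at the summit and the local background. These read numbers depend on depth and fragment length and are not levels to be compared between libraries. The promoter summits held 61 and 55 reads over backgrounds of 5.85 and 5.31 in colony libraries, and 45 and 42 reads over 6.11 and 6.15 in resistant libraries. The NRAS Q61K summits held 20 and 18 reads over 5.08 and 4.53. At a background within 0.5 reads of 5.58, the weakest peaks called anywhere in the lists of parental 1, parental 2, GFP 1 and GFP 2 held 14 reads each. The absence of a peak there means that no summit clear of that limit was called, not that the mark was absent. In the NRAS Q61K lists, 67.9% and 78.3% of peaks had a higher −log10 q than the promoter peak. The same shares were 33.7% and 38.9% in the colony lists and 56.6% and 60.1% in the resistant lists.

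**Figure D2:**
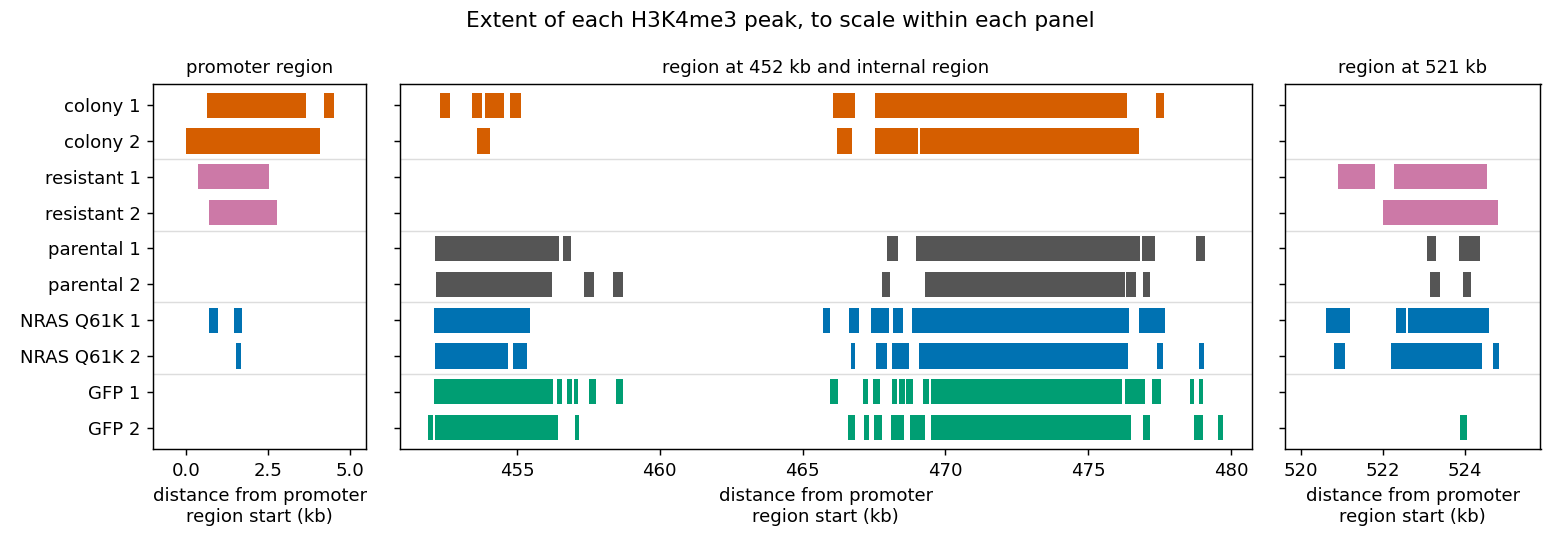
Extent of each deposited peak in the 10 libraries, to scale within each of the 3 panels, with the distance from the first base of the promoter region in kb on the horizontal axes. The promoter peaks of colony cells reach farther right than those of resistant cells, the middle panel is empty in the resistant rows, and the broad peaks of the right panel occur in resistant and NRAS Q61K cells.

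The internal region was among the widest marked places of every library that had it and had no peak in either resistant library. Covered bases were 9860 and 9716 bp in colony libraries and 0 bp in each resistant library, against 9030 and 7873 bp in parental libraries. NRAS Q61K libraries had 10089 and 8810 bp and GFP libraries 9448 and 9410 bp. The 8 libraries outside the resistant pair lay between 7873 and 10089 bp, and both colony values were above both parental values. The main peak alone was 6680 to 8812 bp long, and no more than 0.585% of the peaks in any of those 8 lists were longer.

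The internal region kept its shape in the 8 libraries that carried it. A stretch of 6680 bp, from 104438031 to 104444710, lay under the main peak in all 8, and the summits fell within 1226 bp of each other, towards the far end of that stretch. Before it, colony libraries had a further 2703 and 2436 bp under peaks, against 918 and 507 bp in parental libraries. After it, colony libraries had 477 and 600 bp and parental libraries 1432 and 686 bp, so colonies had more covered sequence than parental cells on the side towards the promoter and less on the other. NRAS Q61K libraries had 2270 and 1524 bp before the stretch and GFP libraries 1471 and 1676 bp, ranges that overlap.

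The summits of the internal region lay far above the limit of calling. They held 98 reads in each colony library and 111 and 92 in parental libraries, 108 and 106 in NRAS Q61K and 101 and 107 in GFP libraries, over backgrounds of 5.07 to 7.99. At a background within 0.5 reads of 6.21, the weakest peaks called in the 2 resistant lists held 15 reads each. At most 11.3% of the peaks in each of the 8 lists had a higher −log10 q, and fold over background ran between 11.5 and 17.6.

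The 452 kb region lies 7 kb before the internal region and was also without a peak in resistant cells, but in colonies it was broken up where the internal region was intact. Covered bases were 1707 and 461 bp in colony libraries and 0 bp in each resistant library, against 4621 and 4794 bp in parental libraries. Colony values were below both parental values and differed widely between the 2 libraries. The strongest colony peaks there held 22 and 29 reads at the summit, and 92.5% and 83.4% of the peaks in their own lists had a higher −log10 q. In parental libraries, whose strongest peaks held 70 and 55 reads, those shares were 37.2% and 39.1%. The weakest peaks called at that background in the resistant lists held 16 reads each. In parental cells the region was 1 main peak of 4353 and 4083 bp, whereas colony 1 had 4 peaks of at most 658 bp and colony 2 had 1 of 461 bp.

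The 521 kb region lies 40.9 kb after the internal region and had the reverse order of groups. Covered bases were 0 bp in each colony library and 3151 and 2799 bp in resistant libraries, against 737 and 462 bp in parental libraries. Resistant values were above both parental values and colony values below them. The resistant summits held 58 and 60 reads, and those of the 2 short peaks in parental libraries up to 31 and 26. At that background the weakest peaks called in colony 1 and colony 2 held 16 and 15 reads. The summits of the strongest peaks of all 7 libraries with one fell within 148 bp, so the stronger of the 2 short peaks in each parental library lay where the broad resistant ones were highest. The weaker of each pair lay nearer the promoter.

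**Figure D3:**
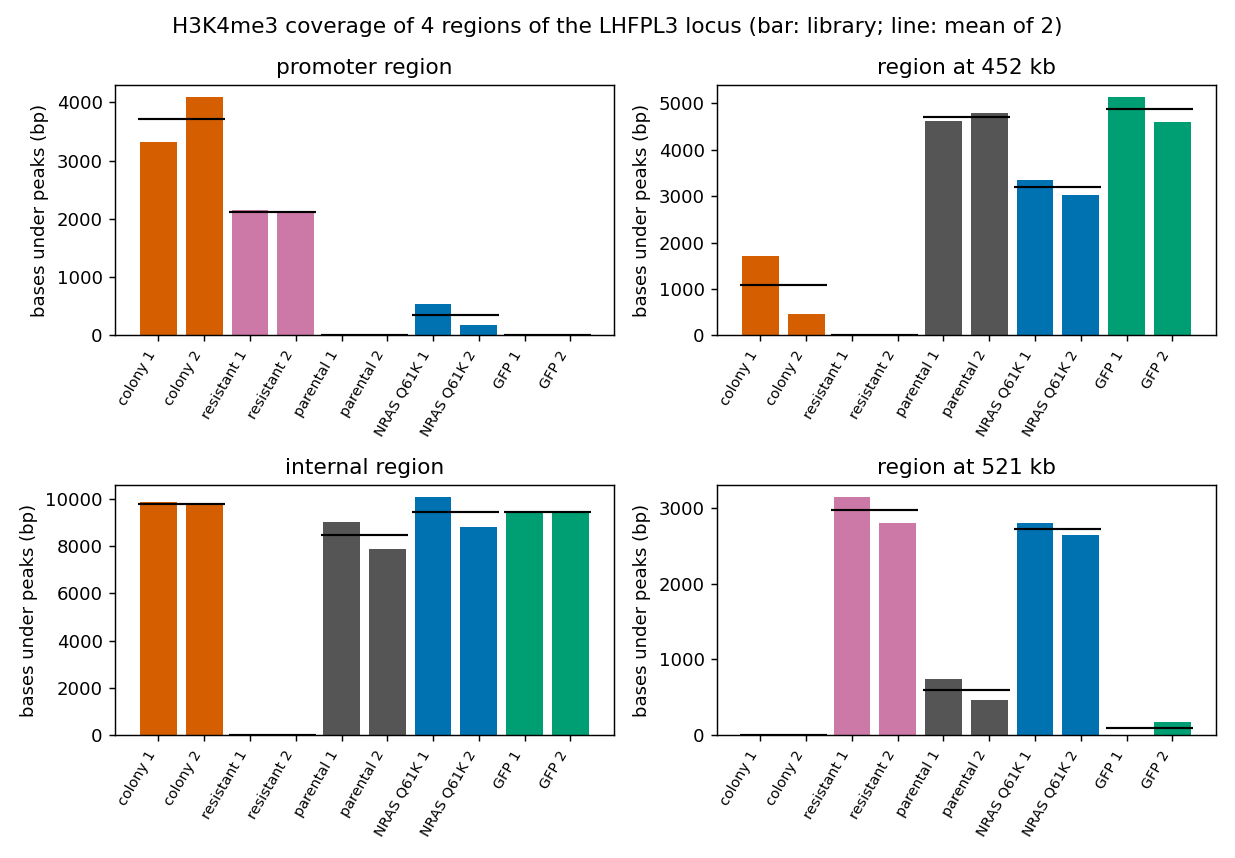
Bases under H3K4me3 peaks in 4 regions of the locus, 1 bar per library and a black line at the mean of the 2 libraries of each group. The promoter bars are high in colony and resistant cells, the internal bars are at 0 in resistant cells only, and the 521 kb bars are high in resistant and NRAS Q61K cells.

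The comparison of NRAS Q61K with GFP cells played no part in choosing the locus and was tested at every region that had a peak in at least 2 libraries, 6 of the 8 here. Bases under peaks were compared as log2(bases + 200) with limma on all 23153 such regions, with Benjamini-Hochberg adjustment over all of them. With 2 libraries against 2, an exact permutation test of a single region cannot go below p = 0.333, so these p-values rest on the spread shared over regions and groups. At the locus, 3 regions were called wider in NRAS Q61K cells, where 5.06% of all regions tested were, and 0 were called narrower, where 2.18% were (1334 regions had an unadjusted limma p under 0.05 in that direction). GFP libraries had 0 bp at the promoter, 395 kb and 429 kb regions, so these could not show a loss. NRAS Q61K libraries also had 0 bp at 429 kb, so that region could not show a gain either. The shared spread takes in groups with 0 bp in both libraries, which add almost none. At the promoter region these were parental and GFP cells, at 395 kb colony, resistant and GFP cells, and at 521 kb colony cells. A fit of the NRAS Q61K and GFP libraries alone gave limma adjusted p of 0.157, 0.196 and 0.0305 at these 3 regions.

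The clearest difference was at the 521 kb region, where NRAS Q61K cells had broad peaks and GFP cells had almost none. NRAS Q61K libraries had 2797 and 2639 bp under peaks, against 0 and 178 bp in GFP libraries. The log2 change was 3.45 (SE 0.30; limma adjusted p = 1.58e-03), and its size depended on the pseudocount, at 4.74 with 50 bp and 1.81 with 1000 bp. The region was called in all 20 alternatives tried, with limma adjusted p between 2.91e-05 and 0.0305. Its NRAS Q61K summits held 59 and 42 reads and the GFP 2 summit 21.

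At the promoter region, NRAS Q61K cells gained short peaks (535 and 175 bp, against 0 bp in each GFP library; limma adjusted p = 0.0219). That call was lost in 9 of 20 alternatives, where limma adjusted p ran up to 0.997. It was lost without NRAS Q61K 1 (adjusted p = 0.117), without GFP 1 or GFP 2 (0.0936 and 0.0966) and without resistant 1 or resistant 2 (0.0602 and 0.0605), and the NRAS Q61K peaks there all had a −log10 q under 10, so that a threshold at this value removed them. The 395 kb region was likewise called, from peaks of 153 and 185 bp in NRAS Q61K and none in GFP libraries (limma adjusted p = 0.0182), and lost in 11 of 18 alternatives. With the stricter peak threshold and with equal lists, too few libraries kept a peak there for it to be tested. Parental libraries had 296 and 250 bp there.

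At the internal region no difference between NRAS Q61K and GFP cells passed the test. The log2 difference was 0.05 (SE 0.06; 95% confidence interval from -0.08 to 0.18; limma adjusted p = 0.758). It was 0.14 both with a stricter peak threshold and with lists cut to equal length (limma adjusted p = 0.241 and 0.287). At the 452 kb region NRAS Q61K libraries had 3348 and 3028 bp, against 5134 and 4603 bp in GFP libraries, so the groups did not overlap. That difference did not pass the test (log2 change -0.53, SE 0.41, interval from -1.47 to 0.40; limma adjusted p = 0.582). The spread used there includes the unequal colony pair, and the limma adjusted p was 0.0372 without colony 1, 0.0315 without colony 2 and 0.0463 in a fit of the 4 NRAS Q61K and GFP libraries alone. NRAS Q61K peaks were shorter on the far side, with 781 and 496 bp under peaks after the shared stretch of 2514 bp, against 2558 and 1903 bp in GFP libraries.

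**Figure D4:**
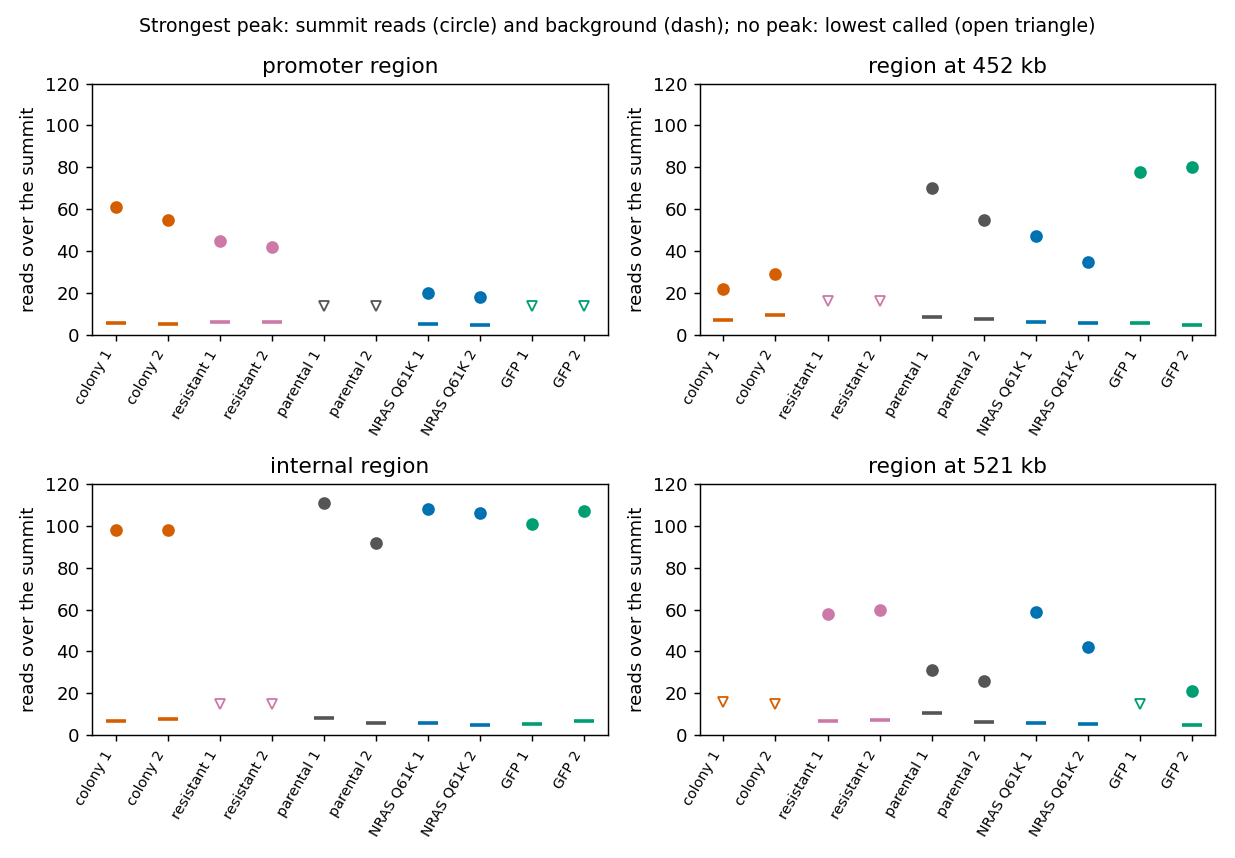
Reads over the summit of the strongest peak (circles) and the local background (dashes) in 4 regions for each of the 10 libraries; an open triangle marks, where a library had no peak, the weakest peak called elsewhere in its list at a like background. Internal summits hold 92 to 111 reads in 8 libraries, while the triangles of the resistant libraries stand at 15.

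Counted by the presence of peaks, the 8 regions were distributed over the comparisons as follows, with the colony and resistant counts given as descriptions. Colonies had peaks in both libraries and parental cells in neither at 2 regions, the promoter region and the 429 kb region (308 and 288 bp), where 0.605% of all 31428 regions were gained. They lacked 2 parental regions, at 395 and 521 kb, where 8.34% of all regions were lost. Resistant cells gained the promoter region (1.64% of all regions) and lost the 395 kb, 452 kb and internal regions (11.8% of all regions). Set against colonies, resistant cells gained the 521 kb region (2.64% of all regions) and lost the 429 kb, 452 kb and internal regions (3.56% of all regions). NRAS Q61K cells gained the promoter and 395 kb regions relative to GFP cells (3.01% of all regions) and lost 0 (1.85% of all regions). GFP cells gained 0 regions relative to parental cells (3.46% of all regions were gained) and lost the 395 kb region (0.878%). The 262 and 275 kb regions were single peaks of 238 and 169 bp in GFP 2.

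The set of libraries with a peak was matched over all regions, as a description. The promoter and internal regions were chosen as gained in colonies and lost in resistant cells. How rare their patterns are therefore follows in part from that choice. Peaks in both colony, both resistant and both NRAS Q61K libraries and in no parental or GFP library were found at 9 regions, 0.0286% of the 31428, the promoter region included. That count needs the short NRAS Q61K peaks, 535 and 175 bp, to match. The 521 kb region shared its set of libraries with 6 others (7 regions, 0.0223%), a count that depends on the 178 bp peak of GFP 2. The pattern of the internal region, in all libraries but the resistant pair, was that of 786 regions (2.5%), among them the 452 kb region. By the root-mean-square difference in log2(bases + 200) over the 10 libraries, the regions most like the promoter region were on chromosome 5 at 63460606 to 63462854 (0.55), chromosome 19 at 37808149 to 37810101 (0.56), chromosome 7 at 89748272 to 89750299 (0.67), and chromosome 22 at 33453378 to 33454961 (0.70) and 41062077 to 41064638 (0.72). Those most like the internal region were on chromosome 2 at 91595109 to 91616085 (0.54) and 90371503 to 90394577 (0.62), chromosome 9 at 141061588 to 141069095 (0.59), and chromosome 8 at 51555416 to 51562333 (0.60) and 29601211 to 29612888 (0.62). The regions on chromosome 2 lie close to the centromere, where repeats share reads.

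Within 500 kb on either side lay 18 further regions, 6 with peaks in all 10 libraries and 12 missing from at least 1. Over the 6, the log2 change in covered bases ran from -0.22 to 0.37 in colony and from -0.63 to 0.23 in resistant against parental cells, a range that by construction holds no gain or loss of a whole peak. The lowest resistant value belonged to the region at 104619122 to 104626145, with 3203 and 4003 bp under peaks in colony and 2097 and 2412 bp in resistant libraries, against 4141 and 4122 bp in parental libraries. The nearest before the locus (103845242 to 103850078) had 4068 and 3965 bp in colony and 3647 and 3231 bp in resistant libraries, against 3363 and 3517 bp in parental libraries. The 12 others were short, with at most 778 bp under peaks in any library, and 6 of them had peaks in 1 library only. Among them colony and resistant cells gained 0 and lost 1 each relative to parental cells, the region at 104805042 to 104805898, which had 609 and 518 bp in parental libraries. NRAS Q61K cells gained 1 relative to GFP cells, at 103630612 to 103630899 (288 and 224 bp).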

How the data were processed

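Each library has 1 deposited list of H3K4me3 peaks in the narrowPeak layout; the 10 input samples were not used here. Per the submitters' processing notes, the tools included MACS2 2.1.2, BWA, SAMtools and deepTools 2.5.4, with GRCh37 (hg19) as the build; no roles are listed. The deposited start, end and summit positions are in bases, and the deposited score is a whole number derived from the q-value. The deposited fold, a ratio made by the authors, sets the summit against local background, and the deposited −log10 p and −log10 q values belong to the summit; all were used only to describe peaks within a list. Peaks were called per library. No header or label says how inputs and duplicate reads entered.

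Titles gave the groups and replicate numbers. Same-numbered libraries did not deviate together (r = 0.0286 for NRAS Q61K with GFP, across 23153 regions). Regions were merged at 1000 bp, and 589 peaks off the autosomes and X were left out. Covered bases were fitted with limma 3.58.1 in R 4.3.3 as log2(bases + 200), with 5 group means, eBayes with a trend, a threshold of 0.05, and each library centred on its median over 12087 regions covered in all 10. The same fit had been planned for the share of regions called in the other comparisons; those calls are not given, since the locus was chosen from these libraries. The scripts were tested on simulated data. For limma these were normal values on the log2 scale, fitted without centring. They held no groups lacking a peak in both libraries, so calls at such regions were not tested that way. Summit reads were solved from fold and p under a Poisson tail with 1 added to both terms of the fold; whole numbers fitted within 0.0005 in −log10 p for 100% of peaks. Python 3.11.15, numpy 2.4.6, pandas 2.3.3, scipy 1.17.1 and matplotlib 3.10.9 were used. The locus, its regions and the tests were chosen with earlier results of these data known. All regions of the locus are reported; the 5 most alike regions per target were named by the smallest root-mean-square difference. Alternatives were a stricter peak threshold, lists of equal length, merging of overlapping peaks only, an overlap of 200 bp, pseudocounts of 50 and 1000 bp, fits without centring, filter or trend, a separate fit of NRAS Q61K and GFP libraries, the replicate number as a block and leaving out each library. Since no label states separate cultures, p-values cover only the spread among these libraries, which may be technical. Promoter sequences and gene names came from RefSeq tables of GRCh38.p14, and LHFPL3 was matched by symbol.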

Additional observations from a re-analysis of the deposited data

Results flagged for a closer look

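At the internal region, both colony libraries had more bases under peaks than both parental libraries and both resistant libraries had none, so the 2 drug groups lay on opposite sides of parental cells. Resistant minus colony was -9788 bp in mean covered bases. The colony excess was far smaller, 1336.5 bp, and the parental libraries themselves had 9030 and 7873 bp. Main peak lengths overlapped, at 8812 and 7663 bp in colony and 7839 and 6991 bp in parental libraries. These bases were not centred between libraries, and the shortest peaks were longer in colony than in parental lists. At the 521 kb region the order was turned round, with colony libraries below and resistant libraries above parental ones, and resistant minus colony was 2975 bp. There colony minus parental was -599.5 bp as reported and 0 bp both with the stricter peak threshold and with lists of equal length, which remove the short parental peaks, so the opposite change rests on those peaks. Neither difference between the drug groups was tested, since both share the parental libraries and the locus was chosen from these comparisons.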

How the results depend on the processing

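Covered-base differences among colony, resistant and parental cells at the 4 broad regions did not reverse in any of the 72 alternatives run; the stricter threshold made resistant minus colony at 452 kb 0 bp, and colony minus parental at 521 kb became 0 bp under that setting and with equal lists. At the promoter region, leaving out 1 library gave 3320 to 4092 bp for colony minus parental, 2093 to 2158 bp for resistant minus parental and -1966.5 to -1194.5 bp for resistant minus colony. At the internal region the ranges were 758 to 1915 bp, -9030 to -7873 bp and -9860 to -9716 bp. There, colony minus parental became 2373 bp with lists of equal length and 1587.5 bp with the stricter peak threshold (1336.5 bp as reported). Resistant minus parental became -7415 bp with both settings (-8451.5 bp), and resistant minus colony -9002.5 bp with the stricter threshold (-9788 bp). The stricter threshold dropped weak flanking peaks in colony and parental libraries. Equal lists dropped them in parental libraries only, and resistant minus colony stayed at -9788 bp.

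For NRAS Q61K against GFP, the promoter log2 change lost its call with the stricter threshold (0.025), equal lists (0.021), a pseudocount of 1000 bp (0.46) and the separate fit (1.42), and ranged from 1.00 to 1.88 without 1 library. The 452 kb change passed in the separate fit (-0.56) and ranged from -0.60 to -0.47 without 1 library. The internal change, near 0, turned to -0.000104 without centring and to -0.0064 without NRAS Q61K 1 (0.10 at most without any 1 library), and was 0.14 under the stricter threshold and with equal lists. With the replicate block, the promoter, 452 kb, internal and 521 kb changes were 1.44, -0.53, 0.05 and 3.45, and no call at the locus changed. Over all regions, 1171 were wider and 504 narrower as reported; the stricter threshold gave 534 and 104, equal lists 513 and 116, and the separate fit 122 and 10. Narrower regions numbered 1240 with overlapping peaks merged only, 197 with a pseudocount of 1000 bp and 300 with no filter. Without 1 library, 71 to 1371 were wider and 48 to 637 narrower.

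Counts of regions at the locus changed as follows, with the share of all regions and the reported count in brackets. Merging overlapping peaks only cut the locus into 20 regions, not 8, and all peaks into 49758, not 31428. Counts with that merging are of smaller units. With the stricter threshold colonies gained 1 and lost 1, and with equal lists gained 1 and lost 0 (2 and 2); they gained 3 when overlapping peaks only were merged. Resistant cells gained 2 against parental cells under the stricter threshold and with equal lists (1.12% and 2.31%, reported 1). They lost 2 under both (4.17% and 4.08%, reported 3). Against colonies they lost 1 under both (1.72% and 2.79%, reported 3) and 4 with that merging (3.06%, reported 3). NRAS Q61K cells gained 1 under both (1.71% and 1.73%, reported 2) and 1 with an overlap of 200 bp (2.67%, reported 2). With that merging they gained 3 (2.91%, reported 2) and lost 2 (2.85%, reported 0). GFP cells gained 3 with that merging (4.68%, reported 0). They lost 2 with the overlap of 200 bp (1.27%) and 0 under the stricter threshold and equal lists (0.375% and 1.30%, reported 1). The stricter threshold, at 10, removed the peaks at 395 and 429 kb and the parental peaks at 521 kb. Their −log10 q was at most 5.55, 3.37 and 6.98. What else lay behind these changes was not tested. The 262, 275, 395 and 429 kb regions rest on peaks of at most 22 summit reads, near the limit of calling.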
